A study of Homo sapiens with 6 samples.

Results

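The genes described here encode 43 proteins of the human centromere and kinetochore, all of them found by symbol among the 24462 symbols counted in each library. CASC5 is the symbol used in the files for the gene now named KNL1. The centromere is the stretch of a chromosome where nucleosomes carry CENP-A in place of histone H3. On this chromatin the constitutive centromere-associated network (CCAN) is built, and on the CCAN the KMN network, made of the KNL1, MIS12 and NDC80 complexes, binds the spindle microtubules. Further proteins load CENP-A, bind the microtubule ends or hold back anaphase until every chromosome is attached, and much of this machinery is known to be transcribed in G2 and mitosis.

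The genes were compared between 3 libraries of 1CT, an immortalized human colonic epithelial cell line given by the labels as wild type, and 3 libraries of 1CT-A, given by the labels as its APC knockdown and by the study's methods as the wild type APC depleted version. 1CT is known to carry telomerase, so both groups are immortalized cells, and all cells were untreated and kept in medium with 20 ng/ml EGF, 1 μg/ml hydrocortisone, 10 μg/ml insulin, 2 μg/ml transferrin, 5 nM selenite and 2% FBS by the labels. Whether 1CT-A is a single clone, whether the 1CT libraries carry a control vector and whether libraries come from separate cultures is not given in the sources used here, so p values measure only the spread between these libraries, which may be technical. Each library was a QuantSeq library, made from 500 ng of total RNA by priming on the poly(A) tail, so that a transcript is counted near its 3′ end and the counts do not grow with its length. Levels are given in CPM, the counts divided by the library's total and multiplied by 1000000, and 3 counts, or 0.238 to 0.385 CPM, was taken as the smallest visible level, a limit that covers counting error only.

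The totals were 7788679 to 8452258 counts in 1CT and 11158108 to 12602988 counts in 1CT-A. In 1CT, APC was counted 417, 363 and 363 times, and in 1CT-A 351, 342 and 433 times, which is 46.6 ± 2.75 CPM (SD, n = 3) against 31.9 ± 2.21 CPM (SD, n = 3). Its fold change in 1CT-A was 0.668 (edgeR's quasi-likelihood test, Benjamini-Hochberg adjusted p = 0.00018), in the direction of the label. EPCAM had no count in any library, CDH1 at most 4 and KRT8 at most 14, which does not bear out the epithelial label. KRT18 ranged from 9.94 to 13.2 CPM in the 1CT libraries and from 3.23 to 7.02 in the others. KRT19 was counted 20, 27 and 34 times in 1CT and not at all in 1CT-A (adjusted p = 7.8e-06). The 5 epithelial markers together reached between 13.3 and 17.3 CPM in 1CT but between 3.23 and 7.20 in 1CT-A, whereas 6 mesenchymal markers, VIM and COL1A1 among them, reached 4299 to 5360 and 4042 to 4346 CPM. The mesenchymal markers did not move together, since COL3A1 rose from a mean of 47.8 to 253.4 CPM (fold 5.16, adjusted p = 2.7e-07), PDGFRB, ACTA2, COL1A1 and VIM were lower (folds of 0.507, 0.401, 0.666 and 0.870) and COL1A2 was not called. The third library of 1CT stood apart, its counts differing from those of both other 1CT libraries by a chi-square of at least 7.54 for each degree of freedom, where the other replicate pairs lay between 3.11 and 4.56. It held the lowest level of its cell line for 40.7% of genes tested. For 1CT-A replicate 1 this share was 39.8%, and for the other libraries 29.5% to 31.1%. Without 1CT replicate 3, 32 of the 43 genes described here were called higher in 1CT-A instead of 34. The median log2 fold change was then 0.70 instead of 0.69. None of 6 markers of the differentiated colon or of 4 colon stem cell markers had more than 2 counts in a library.

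Promoter sequences are shown first, because their letters played no part in choosing the genes. RefSeq's table of windows from 250 bases before to 50 after the start site (GRCh38.p14) held 35 of the 43 genes and lacked BUB3, CASC5, CENPH, CENPJ, CENPL, CENPM, KNTC1 and MIS18A. These windows were searched on both strands for the cell cycle genes homology region, or CHR (TTTGAA or TTCGAA), for E2F letters (TTTCCCGC, TTTCGCGC, TTTGCCGC or TTTGGCGC) and for the CCAAT box (CCAAT), elements known from promoters of genes transcribed in G2 and mitosis or at the start of S phase. No match in these genes overlapped a match of another element. A gene was counted for an element if any of its windows held it, whereas the share of windows counts each window alone. CENPP, MIS12 and ZWINT had more than 1 window. CENPP held its CCAAT letters only in the window at chr9:92600007-92600306. The CHR letters were found in 17 of the 35 genes (48.6%), against 16.4% of all 35116 windows and 15.6% of the 9807 genes tested below that have a window. The CCAAT letters were found in 20 genes (57.1%), against 34.6% of windows and 43.8% of genes tested, and the E2F letters in 4 genes (11.4%), against 3.31% and 6.86%. CENPA and OIP5 held all 3 kinds, and CENPB, CENPE, CENPI, CENPT, CENPV, DSN1, KNSTRN, MAD1L1 and NSL1 held none. A match is a run of letters and not a shown binding site.

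The windows of the 3 genes with the largest rises and of both genes with a fitted value below 0 are printed 5′ to 3′ on the strand of the gene, with all matches in capitals. CENPA lies on the plus strand (chr2:26785806-26786105), CENPQ on the plus strand (chr6:49463120-49463419), MAD2L1 on the minus strand (chr4:120066799-120067098), CENPT on the minus strand (chr16:67847644-67847943) and MAD1L1 on the minus strand (chr7:2232896-2233195).
CENPA: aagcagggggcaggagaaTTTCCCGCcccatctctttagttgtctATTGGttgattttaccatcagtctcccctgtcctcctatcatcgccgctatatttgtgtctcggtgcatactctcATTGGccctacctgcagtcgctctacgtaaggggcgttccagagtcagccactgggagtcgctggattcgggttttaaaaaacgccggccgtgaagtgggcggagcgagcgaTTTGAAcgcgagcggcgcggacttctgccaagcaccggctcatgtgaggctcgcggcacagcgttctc
CENPQ: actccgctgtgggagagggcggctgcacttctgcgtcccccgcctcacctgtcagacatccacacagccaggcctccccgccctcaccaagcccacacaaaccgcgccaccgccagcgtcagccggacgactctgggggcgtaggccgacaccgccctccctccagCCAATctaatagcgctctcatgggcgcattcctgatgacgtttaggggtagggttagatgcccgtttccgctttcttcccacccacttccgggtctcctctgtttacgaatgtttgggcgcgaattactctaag
MAD2L1: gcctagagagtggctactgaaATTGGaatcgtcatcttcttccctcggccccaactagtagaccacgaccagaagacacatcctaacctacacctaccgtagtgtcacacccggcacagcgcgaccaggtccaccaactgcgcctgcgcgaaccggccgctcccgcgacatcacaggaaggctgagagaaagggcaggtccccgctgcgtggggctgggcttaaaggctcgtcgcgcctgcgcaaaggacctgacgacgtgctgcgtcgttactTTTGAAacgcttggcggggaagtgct
CENPT: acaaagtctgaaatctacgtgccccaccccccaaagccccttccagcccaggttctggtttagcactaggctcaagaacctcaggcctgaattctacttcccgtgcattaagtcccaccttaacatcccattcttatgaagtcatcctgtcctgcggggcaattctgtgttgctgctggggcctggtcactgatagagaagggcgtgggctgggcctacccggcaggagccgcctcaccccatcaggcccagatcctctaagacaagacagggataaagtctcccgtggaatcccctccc
MAD1L1: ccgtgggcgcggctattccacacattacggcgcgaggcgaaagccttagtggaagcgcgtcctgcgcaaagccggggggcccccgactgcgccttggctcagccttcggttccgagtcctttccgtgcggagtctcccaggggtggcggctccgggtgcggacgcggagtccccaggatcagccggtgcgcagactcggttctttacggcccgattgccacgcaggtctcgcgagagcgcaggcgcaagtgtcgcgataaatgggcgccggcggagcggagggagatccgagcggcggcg
The CENPA window held 4 matches, which were E2F letters, a pair of CCAAT boxes read on the opposite strand, and CHR letters whose first base lies at -18 from the start site. The MAD2L1 window held CHR letters at 25 and a CCAAT box on the opposite strand at -229. CENPQ held a single CCAAT box at -84. The windows of CENPT and MAD1L1 held no match.

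Most kinetochore and centromere genes were higher in 1CT-A. Of the 43 genes, 42 had enough counts to be tested, 34 rose at an adjusted p under 0.05, none was lower at that threshold, and 8 were not called. Over all 12514 genes tested, 25.0% were called higher and 26.0% lower. The median log2 fold change of the 42 genes was 0.69, a fold of 1.61, and that of all genes tested was -0.01. The fitted value was above 0 for 40 genes and below 0 for CENPT and MAD1L1, the latter turning to 0.0109 when libraries were scaled by their size only. In 35 of the 43 genes every 1CT-A library lay above every 1CT library, which held for 31.8% of all genes tested, and in none did every 1CT-A library lie below, which held for 27.9% of all genes tested. At the thresholds of the study's methods, 2-fold or more with an unadjusted p under 0.01, 6 genes were higher (CENPA, CENPQ, MAD2L1, OIP5, KNSTRN and MIS18A) and none lower, against 3.80% and 9.60% of all genes. RNA of all cells was pooled in a library, so more cells in a given cell cycle phase and more RNA per cell cannot be told apart.

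**Figure D1:**
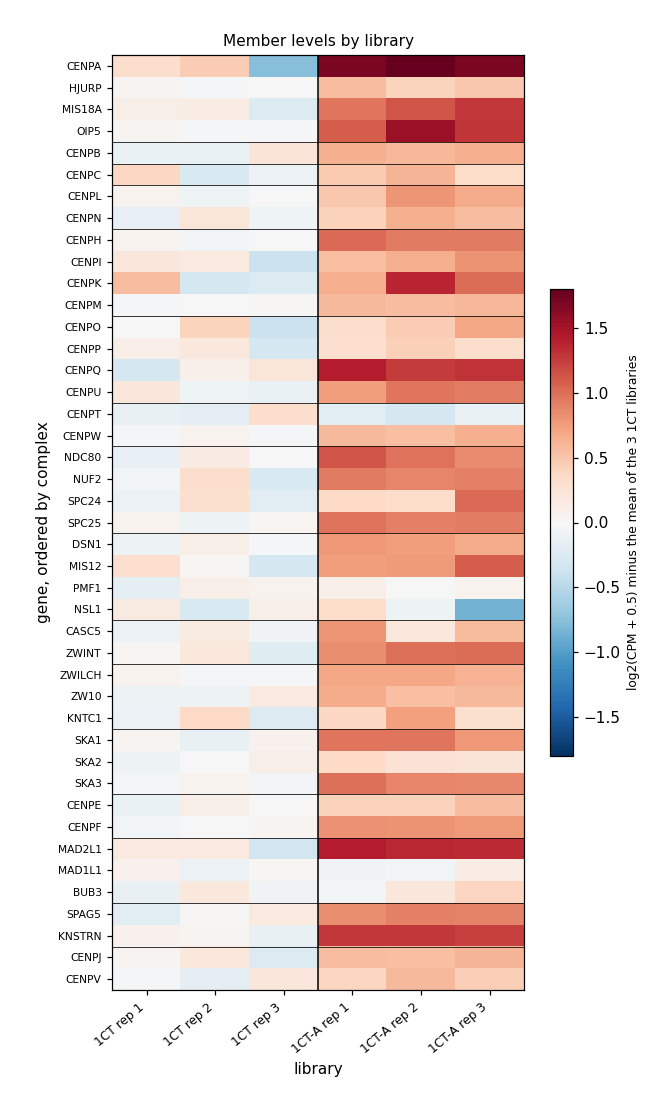
Level of the 43 genes in each of the 6 libraries, with libraries across and genes down in the order of the complexes; color is log2(CPM + 0.5) minus the mean of the 3 1CT libraries. The 1CT-A columns are red in nearly all rows, with CENPA and MAD2L1 among the darkest and CENPT, PMF1 and MAD1L1 near white.

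Summed over the 43 genes, the level was 1477, 1586 and 1495 CPM in the 1CT libraries and 2352, 2404 and 2423 CPM in the 1CT-A libraries. BUB3 and SKA2 made up a large part of that sum, and without them it lay between 1084 and 1149 CPM in 1CT, against 1901 to 1927 for 1CT-A. The libraries of a cell line lay close together in both sums, and the cell lines were far apart. At a mean level of 10 CPM or more there were 31 genes, and 28 of them were called higher and none lower, where 31.4% of all genes at this level were higher and 23.4% lower. Of the 12 genes under 10 CPM, 6 were called higher, 5 were not called and NSL1 was not tested. Among genes tested at any level, 25.0% were called higher. The share for genes under 10 CPM alone was not computed.

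**Figure D2:**
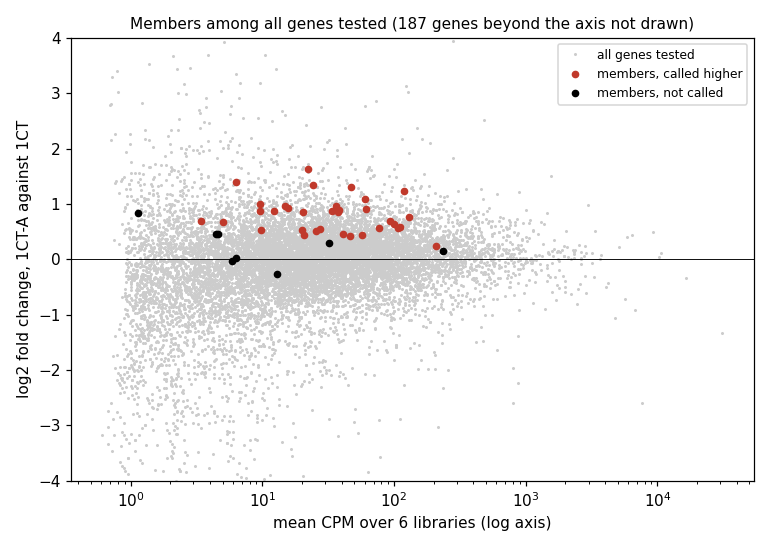
Log2 fold change between the cell lines (1CT-A over 1CT) plotted over the mean CPM of the 6 libraries (log axis) for all genes tested in grey, called members in red and members not called in black; 187 genes beyond a log2 fold change of 4 in either direction are not drawn. The members lie between -0.26 and 1.63, most of them above 0, and 5 of the 8 not called have a mean under 10 CPM.

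All 4 genes for CENP-A and its loading were called higher in 1CT-A, against 25.0% of all genes tested. CENPA, the histone H3 variant of the centromere (chromosome 2, 26764289 to 26801067 in GRCh38), was at 12.4, 13.8 and 5.65 CPM in the 1CT libraries and at 33.2, 35.6 and 33.2 CPM in the 1CT-A libraries. The 1CT-A libraries lay close together and far above 1CT, where replicate 3 was lower than the other two. Without that library the log2 fold change of CENPA was 1.355. CENPA showed the largest rise of the 42 genes, a log2 fold change of 1.63 ± 0.20 (standard error, adjusted p = 2.0e-05), a fold of 3.10 with a 95% interval of 2.30 to 4.19. OIP5, a subunit of the Mis18 complex that prepares centromeres for new CENP-A, was at 27.9, 26.6 and 26.1 CPM in 1CT and at 57.8, 79.5 and 66.3 CPM in 1CT-A, a fold of 2.46 (adjusted p = 1.0e-06). MIS18A, its partner in that complex, was at 40.5, 41.3 and 31.6 CPM in 1CT and rose 2.12-fold to 73.4, 82.5 and 91.6 CPM. HJURP, the chaperone that carries CENP-A to the centromere, moved less, from 35.5, 33.4 and 34.3 CPM to 50.6, 45.7 and 48.5 CPM (fold 1.37, adjusted p = 0.00083). The ratio of CENPA to HJURP counts in a library was 0.309 ± 0.128 in 1CT and 0.707 ± 0.064 in 1CT-A (SD, n = 3), with no overlap between the cell lines. This pair and the pairs of other complexes below were picked with the fitted values known, so that their ratios are a description.

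CENPB, which binds a short motif in alpha-satellite DNA, was at 80.2, 80.3 and 102.7 CPM in 1CT and at 136.3, 131.9 and 138.0 CPM in 1CT-A, and rose 1.502-fold (adjusted p = 0.00028).

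Of the 13 CCAN genes, 10 rose and 3 were not called, with a median log2 fold change of 0.56. Of all genes tested, 25.0% were called higher. The CENP-H/I/K/M subunits all rose. CENPK had the largest fitted value of them, 0.99, but also a wide spread, with 9.11, 4.71 and 5.01 CPM in 1CT and 9.77, 16.3 and 12.6 CPM in 1CT-A, and the highest 1CT library nearly touched the lowest 1CT-A library. CENPH was tighter, with 10.4, 9.66 and 9.89 CPM against 20.8, 19.6 and 19.5 CPM, a fold of 1.94 (adjusted p = 2.7e-05). CENPM rose least of the 4, from 21.2, 21.9 and 22.1 CPM to 32.9, 32.2 and 33.0 CPM, and its libraries hardly varied within a cell line. CENPI had the lowest counts of the 4, with 2.96, 2.90 and 1.797 CPM in 1CT against 3.85, 4.21 and 4.76 CPM in 1CT-A (fold 1.63, adjusted p = 0.031). Its call was lost without 1CT replicate 3 (adjusted p = 0.11), 1CT-A replicate 2 (0.061) or 1CT-A replicate 3 (0.11), and in DESeq2 (0.12). CENPL and CENPN, which form the CENP-L/N pair of the CCAN, both rose. CENPL was at 4.02, 3.62 and 3.85 CPM in 1CT and at 5.56, 7.02 and 6.35 CPM in 1CT-A (fold 1.60, adjusted p = 0.011), and its call was lost in DESeq2 (adjusted p = 0.0533). CENPN was at 18.8, 24.1 and 19.8 CPM in 1CT and at 28.0, 32.7 and 30.7 CPM in 1CT-A (fold 1.42, adjusted p = 0.0026).

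The CENP-O/P/Q/U subunits spread widely, with log2 fold changes from 0.30 to 1.39. CENPQ showed the second largest value of all 42 genes, with 2.60, 3.62 and 3.98 CPM in 1CT and 9.77, 8.69 and 8.97 CPM in 1CT-A, a fold of 2.62 with a 95% interval of 1.95 to 3.52 (adjusted p = 7.1e-05). It was counted on only 22, 30 and 31 reads in 1CT. CENPU, which anchors this group to Polo-like kinase 1, rose 1.81-fold, from 13.1 to 16.4 CPM up to 24.4 to 28.3 CPM. The other two subunits are uncertain because their counts were nearly those of a neighbor. CENPP was counted 258, 266 and 174 times in 1CT and 388, 430 and 442 times in 1CT-A, and IPPK, which overlaps its 3′ part on the opposite strand by 7347 bases in GENCODE release 44, was counted 257, 265 and 176 times and 377, 424 and 440 times. CENPP was not called (fold 1.23, 95% interval 1.03 to 1.47, adjusted p = 0.0505). CENPO was counted 395, 516 and 279 times in 1CT and 656, 742 and 965 times in 1CT-A, and ADCY3, which overlaps it on the opposite strand by 3208 bases, 344, 487 and 236 times and 548, 632 and 864 times. CENPO was called (fold 1.35, adjusted p = 0.033), with levels of 35.8 to 62.3 CPM in 1CT against 58.8 to 76.6 CPM, so that the cell lines overlapped. The call of CENPO was lost without 1CT replicate 1 (adjusted p = 0.082), without 1CT replicate 3 (0.064), without 1CT-A replicate 2 (0.063) and without 1CT-A replicate 3 (0.14). Among the 43 genes, these were the only ones with a neighbor within 12 entries of the file that followed them this closely (a mean count ratio of at least 0.8 and at most its inverse, with an SD over mean under 0.05), a search made after the data were seen. Reads of such a pair cannot be divided between its genes. The 3′ ends of OIP5, CENPU, ZWILCH and CENPV also lie against a gene of the opposite strand, without such a likeness in counts. Named pseudogenes exist for CENPC, CENPN, CENPI, CENPP, CENPU, SKA2, MAD2L1 and BUB3, so that their counts could hold reads of another locus. Without CENPO and CENPP, 33 of 40 genes tested were called higher.

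CENPC, the large protein that links CENP-A nucleosomes to the MIS12 complex, was at 4.85, 2.90 and 3.34 CPM in 1CT and at 5.20, 5.79 and 4.68 CPM in 1CT-A, and the groups overlapped. It was not called (fold 1.37, 95% interval 0.968 to 1.94, adjusted p = 0.12), and without 1CT replicate 1 its log2 fold change was 0.70 (adjusted p = 0.038). CENPW and CENPT form a histone fold pair. CENPW rose from 60.0, 63.5 and 59.3 CPM to 91.5, 89.3 and 96.0 CPM (fold 1.47, adjusted p = 5.2e-05). CENPT was at 12.4, 12.1 and 17.1 CPM in 1CT and at 11.8, 11.1 and 12.6 CPM in 1CT-A and was not called (fold 0.834, 95% interval 0.659 to 1.06, adjusted p = 0.18). The highest value of CENPT was that of 1CT replicate 3, and the other libraries lay within 11.1 to 12.6 CPM. The ratio of CENPW to CENPT was 4.52 ± 0.932 in 1CT and 7.81 ± 0.239 in 1CT-A (SD, n = 3), without overlap.

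**Figure D3:**
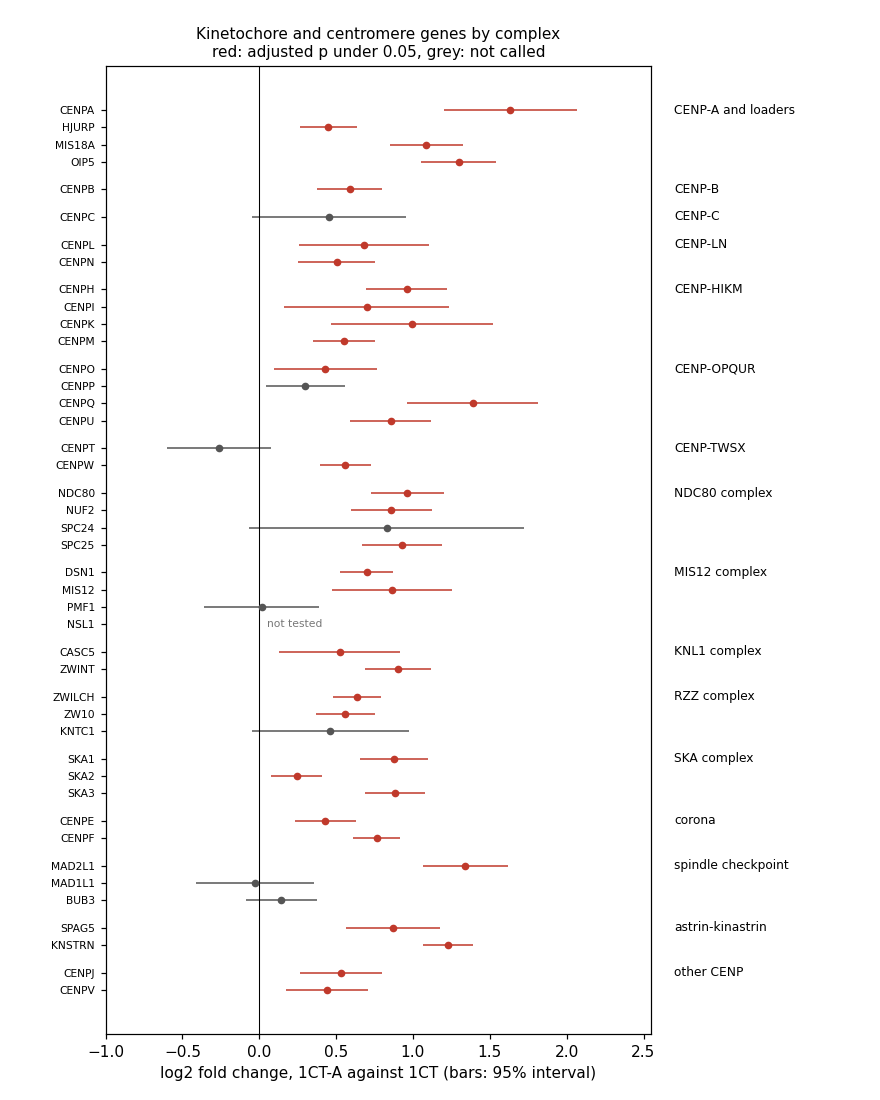
Fitted log2 fold change (1CT-A over 1CT) for each gene, with its 95% interval, ordered by complex; red points passed an adjusted p under 0.05 and grey points did not. The NDC80 complex spans only 0.83 to 0.96, whereas the spindle checkpoint genes range from -0.03 for MAD1L1 (0.0109 with library size only) to 1.34 for MAD2L1.

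In the KMN network, 7 of 10 genes rose, against 25.0% of all genes tested. PMF1 and SPC24 were not called and NSL1 was not tested. The subunits of the NDC80 complex, the main microtubule coupler, had fitted values close to each other, with log2 fold changes of 0.96 for NDC80, 0.93 for SPC25, 0.86 for NUF2 and 0.83 for SPC24. NDC80 was at 21.5, 26.6 and 24.1 CPM in 1CT and at 53.3, 47.7 and 43.7 CPM in 1CT-A (fold 1.95, adjusted p = 1.1e-05). SPC25 was at 11.0, 9.90 and 10.8 CPM against 21.2, 20.2 and 20.5 CPM (fold 1.90, adjusted p = 3.4e-05). The ratio of NDC80 to SPC25 counts was 2.29 ± 0.366 in 1CT and 2.34 ± 0.189 in 1CT-A (SD, n = 3), and the cell lines overlapped. SPC24 had only 6, 9 and 5 counts in 1CT and 13, 13 and 27 counts in 1CT-A, and although its libraries did not overlap in CPM, it was not called (95% interval of the fold 0.957 to 3.31, adjusted p = 0.11).

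The MIS12 complex joins the inner to the outer kinetochore. DSN1 rose from 65.3, 74.5 and 68.7 CPM to 119.9, 117.6 and 110.4 CPM (fold 1.62, adjusted p = 1.1e-05), and MIS12 from 8.16, 6.64 and 5.14 CPM to 11.4, 11.5 and 14.5 CPM (fold 1.82, adjusted p = 0.0014). PMF1, also a subunit, was at 5.44, 6.76 and 6.55 CPM in 1CT and at 6.72, 6.23 and 6.51 CPM in 1CT-A, inside the same range. Its fold was 1.01 with a 95% interval of 0.780 to 1.31 (adjusted p = 0.94), so that a rise of the size of DSN1 lies outside the interval. NSL1 had 7, 4 and 6 counts in 1CT and 11, 7 and 2 in 1CT-A, and a difference was not detectable at this depth. In the KNL1 complex, ZWINT rose from 43.0, 47.7 and 35.8 CPM to 75.5, 83.5 and 84.3 CPM (fold 1.87, adjusted p = 8.2e-06). CASC5, the scaffold that recruits checkpoint kinases, was at 7.33, 8.93 and 7.57 CPM in 1CT and at 14.1, 9.13 and 11.98 CPM in 1CT-A. It was called (fold 1.44, adjusted p = 0.028), but the lowest 1CT-A library was barely above the highest 1CT library, and without 1CT-A replicate 1 its adjusted p was 0.12, without 1CT-A replicate 3 it was 0.069 and without 1CT replicate 1 it was 0.088.

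On the outer kinetochore, both large coiled-coil proteins rose. CENPF was at 90.9, 94.7 and 96.9 CPM in 1CT and at 167, 166 and 159.7 CPM in 1CT-A (fold 1.70, adjusted p = 1.9e-06). CENPE, the kinesin that carries chromosomes to the spindle equator, rose less, from 35.5, 41.7 and 38.9 CPM to 51.4, 51.9 and 57.1 CPM (fold 1.35, adjusted p = 0.0016). The SKA complex, which follows shrinking microtubules, had SKA1 and SKA3 rising by 1.83-fold and 1.85-fold (adjusted p = 1.3e-05 and 3.8e-06). SKA3, the larger of these rises, went from 26.1, 27.8 and 25.7 CPM to 53.1, 49.2 and 48.6 CPM, without overlap. SKA2 was the smallest rise that was called. It was at 175, 185 and 200.3 CPM in 1CT and at 238, 224 and 218 CPM in 1CT-A (fold 1.18, adjusted p = 0.017), and it was not called without 1CT replicate 1 (adjusted p = 0.0795) or without 1CT-A replicate 1 (0.0744). The ratio of SKA3 to SKA2 was 0.143 ± 0.012 in 1CT and 0.222 ± 0.0019 in 1CT-A (SD, n = 3).

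In the RZZ complex, which brings dynein and the checkpoint proteins to unattached kinetochores, ZWILCH rose from 80.2, 74.7 and 75.4 CPM to 124.4, 124.8 and 118.5 CPM (fold 1.55, adjusted p = 1.2e-05) and ZW10 rose 1.48-fold (adjusted p = 0.00019). KNTC1, the largest subunit, was at 3.43, 4.95 and 3.08 CPM in 1CT and at 5.02, 6.58 and 4.68 CPM in 1CT-A. These values overlapped, and KNTC1 was not called (fold 1.38, 95% interval 0.966 to 1.96, adjusted p = 0.12), although without 1CT replicate 2 its log2 fold change was 0.69 (adjusted p = 0.043). SPAG5 and KNSTRN form the astrin-kinastrin pair that marks kinetochores attached from both sides. KNSTRN was at 73.7, 72.9 and 64.2 CPM in 1CT and at 170.3, 171 and 166 CPM in 1CT-A. Its fold of 2.34 had the smallest adjusted p of all 42 genes (4.9e-08). SPAG5 rose from 7.33, 8.69 and 9.76 CPM to 15.7, 16.5 and 16.3 CPM (fold 1.83, adjusted p = 0.00021).

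The 3 spindle checkpoint genes did not move alike. MAD2L1, the checkpoint protein that holds back CDC20 (chromosome 4, 120055623 to 120066858), was at 15.0, 15.0 and 10.3 CPM in 1CT and at 36.0, 34.8 and 34.4 CPM in 1CT-A, a fold of 2.53 with a 95% interval of 2.09 to 3.08 (adjusted p = 2.5e-06). The lowest value of MAD2L1 was that of 1CT replicate 3, without which its log2 fold change was 1.20 instead of 1.34. MAD1L1, which holds MAD2L1 at the kinetochore (chromosome 7, 1815793 to 2233243), was at 6.27, 5.43 and 6.03 CPM in 1CT and at 5.65, 5.71 and 6.51 CPM in 1CT-A. The values of MAD1L1 intermingled (fold 0.982, 95% interval 0.753 to 1.28, adjusted p = 0.91). BUB3, which brings BUB1 and BUBR1 to KNL1, was the most abundantly counted gene of the 43, with 1693, 2085 and 1636 counts in 1CT and 2370, 2876 and 3605 in 1CT-A. In CPM the cell lines overlapped (fold 1.10, 95% interval 0.942 to 1.29, adjusted p = 0.28). The ratio of MAD2L1 to MAD1L1 was 2.28 ± 0.536 in 1CT and 5.92 ± 0.571 in 1CT-A, and that of MAD2L1 to BUB3 was 0.061 ± 0.013 and 0.142 ± 0.025 (SD, n = 3), neither with overlap.

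**Figure D4:**
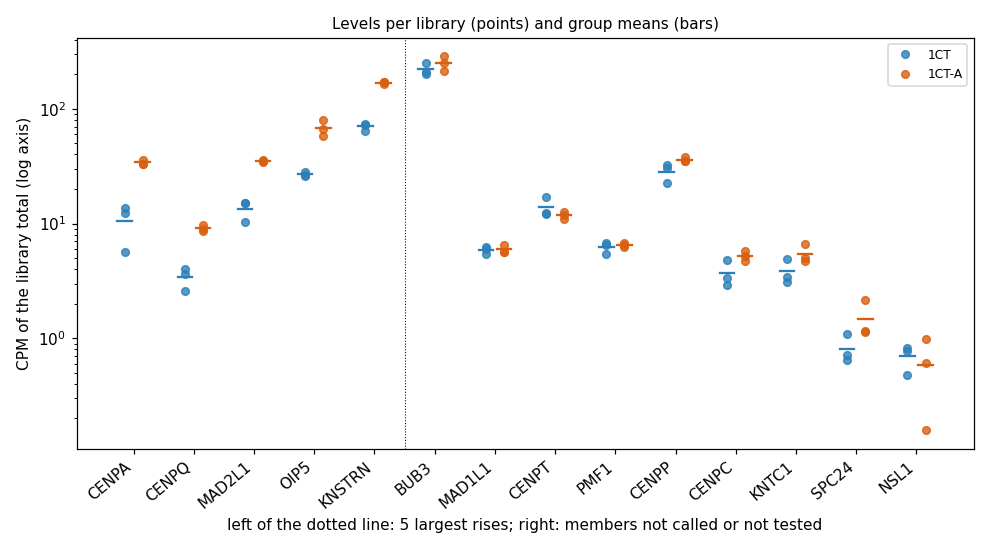
CPM of each library on a log axis, 1CT in blue and 1CT-A in orange, with short bars at the group means, for the 5 largest rises (left of the dotted line) and the 9 genes not called or not tested (right). On the left the colors are apart in every gene, and on the right they overlap or nearly touch.

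CENPJ and CENPV bear CENP names but are known mainly for work outside the kinetochore, in centriole assembly and in organizing chromosomes and the midzone. CENPJ rose from 16.7, 18.5 and 13.5 CPM to 23.8, 23.6 and 24.9 CPM (fold 1.45, adjusted p = 0.0028). CENPV rose from 16.8, 15.5 and 19.9 CPM to 22.7, 26.1 and 23.8 CPM (fold 1.35, adjusted p = 0.0094).

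Among the 34 tested genes with a promoter window, the 17 with the CHR letters had a median log2 fold change of 0.87, a range of 0.43 to 1.63, and 16 that were called. The 17 without these letters had a median of 0.64, a range of -0.26 to 1.39, and 12 that were called. The share called higher was 25.0% over all genes tested. It was not computed for all genes with or without the letters, so a link between letters and rise was not tested. CENPC was the gene with the letters that was not called. CENPQ and KNSTRN rose more than 2-fold without them. Of the 35 genes with a window, 28 were called and 7 were not, with NSL1, which was not tested, among the 7. The CCAAT letters stood in 16 of the 28 and in 4 of the 7. The E2F letters stood in CENPA, CENPU, MIS12 and OIP5, all called, as were most genes with a window.

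**Figure D5:**
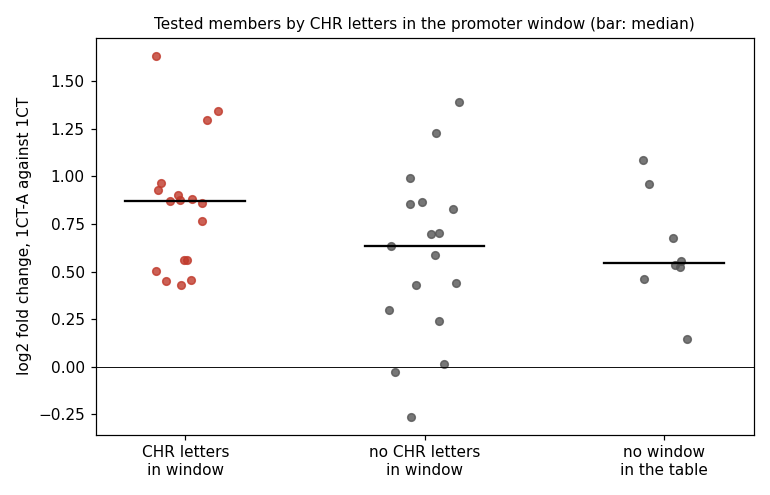
Log2 fold change of the 42 tested genes, divided by whether the CHR letters occur in the promoter window (17 genes), do not occur (17 genes) or no window was in the table (8 genes), with the median as a bar. The ranges overlap widely, and the values below 0, CENPT and MAD1L1 (the latter above 0 with library size only), are among the genes without the letters.

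Genes that work beside these at the kinetochore, from a list of 47 counted genes, gave a similar picture. Of the 46 tested, 33 were higher, 1 lower and 12 not called, with a median log2 fold change of 0.67. Over all genes tested, 25.0% were called higher and 26.0% lower. At a mean of 10 CPM or more, these shares were 31.4% and 23.4%. All 4 genes of the chromosomal passenger complex rose, led by CDCA8 with 47.7, 51.0 and 42.1 CPM in 1CT and 142.4, 136.4 and 132.6 CPM in 1CT-A (fold 2.84, adjusted p = 2.1e-08). All 7 checkpoint kinases and regulators rose, with BUB1B at a fold of 2.61 (adjusted p = 1.2e-06), and so did both shugoshins, the protectors of centromeric cohesion, with SGOL2 at 2.22 (adjusted p = 5.9e-07). Of 10 further CCAN subunits and CENP-A loading factors tested, 7 rose, the largest being RACGAP1 (fold 1.84, adjusted p = 2.6e-05), and APITD1 had too few counts. In the Nup107-160 complex with RanGAP and RANBP2, 8 of 11 rose, led by NUP37 (fold 2.05, adjusted p = 0.00033), which was at 19.0 CPM in 1CT replicate 3 and at 34.5 and 39.8 CPM in the other two, and whose log2 fold change was 0.80 without that library instead of 1.04. Corona, dynein and microtubule factors were mixed, with 5 of 12 higher, 1 lower and 6 not called. KIF2C rose 2.12-fold (adjusted p = 1.3e-06), and NDEL1, a dynein adaptor, was lower, at 58.9, 62.4 and 53.2 CPM in 1CT against 46.3, 47.4 and 44.1 CPM in 1CT-A (fold 0.769, adjusted p = 0.0024).

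Markers of the cell cycle moved with the kinetochore genes. The 6 proliferation markers were all higher, with MKI67 at 115, 115 and 119 CPM in 1CT and 172, 142 and 154 CPM in 1CT-A (fold 1.31, adjusted p = 0.0020) and MCM2 at a fold of 2.88 (adjusted p = 1.5e-08). Seurat's list of G2/M genes holds 6 of the genes described here (NDC80, NUF2, CENPF, HJURP, CENPE and CENPA) and its S phase list none. Of the other 48 G2/M genes, 44 were called higher and none lower, with a median log2 fold change of 0.86. Of 42 S phase genes, 40 were higher and none lower, with a median of 0.84. Of all genes tested, 25.0% were called higher and 26.0% lower. Only the genes described here were taken out of Seurat's lists. The G2/M list still holds partner genes such as RANGAP1, so these lists are not independent. The part of cell cycle genes in the rise of the kinetochore genes was not tested. The GC content of the last 500 bases of the transcript had a median of 36.5% in the 42 genes and 41.4% in all genes tested. With the trend of the fitted values over this GC content removed, the median log2 fold change was 0.63 instead of 0.69, and CENPT alone was below 0.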

How the data were processed

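The authors deposited, for each of the 6 libraries, a table of whole-number read counts, 1 value for each gene symbol, neither normalized nor pooled. The submitters' processing notes name hg19, Bowtie2 and edgeR, without roles. The counting tool, the annotation and the use of strand are not given in the sources used here, and reads of overlapping genes can be counted on both. Of 25737 entries per file, those sharing a symbol (286 symbols) were added together. Positions are from GENCODE release 44 on GRCh38, not the authors' build, and promoter windows from RefSeq on GRCh38.p14. Coordinates were not converted between builds.

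Counts were fitted with edgeR 4.0.16 in R 4.3.3, using TMM factors (0.976 to 1.02), and filterByExpr (minimum count 10). The cell lines were compared by the quasi-likelihood test, no replicate block being used, with Benjamini-Hochberg adjusted p over all 12514 genes tested. A call is an adjusted p under 0.05. Standard errors and 95% intervals were computed from the F statistic. CPM are counts divided by the library's total, times 1000000. With 3 libraries against 3, an exact two-sided permutation test of a single gene cannot go below 0.1, so calls rest on the model across genes. All replicate pairs differed by more than counting noise (chi-square per degree of freedom 3.11 to 9.00, the highest values being those of 1CT replicate 3).

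The genes and lists were chosen with earlier results of these data known. All 43 genes are accounted for. Values per library were given for genes not called or not tested, the largest and smallest rises, and the ends of each complex. Of the partner list, the largest rise of each group and the gene called lower were named, some by their fold only. Alternatives were DESeq2 size factors, library size only, no filter, a minimum of 10 counts in all libraries, limma-voom (limma 3.58.1), DESeq2 1.42.0, a replicate block, a threshold of 0.01, leaving out repeated symbols and each library left out. A GC correction and leaving out CENPO and CENPP were added after the data were seen. Cell cycle lists are those of Seurat 5.3.0.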

Additional observations from a re-analysis of the deposited data

How the results depend on the processing

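Of the 43 genes, 31 to 36 were called higher and none lower under all alternatives run at an adjusted p under 0.05, and 29 were called at an adjusted p under 0.01. The median log2 fold change stayed between 0.66 and 0.73 under the other normalizations, filters and tools and with each library left out, and moved to 0.63 with the GC trend removed. It was 0.70 without CENPO and CENPP. The median of all genes was -0.12 in DESeq2 and 0.03 with library size only. Between 5 and 9 genes passed the 2-fold threshold. DESeq2 lost CASC5, CENPI and CENPL. With a library left out, CENPO lost its call in 4 of 6 cases, CASC5 and CENPI in 3 each and SKA2 in 2. CENPP was called under 5 other fits and without 1CT replicate 1 or 2, with an adjusted p of 0.0069 without a filter, and BUB3 only without a filter (0.19, adjusted p = 0.049). MAD1L1 changed sign to 0.0109 with library size only and 0.0192 without a filter, and ranged from -0.0903 to 0.0165 with a library left out. With a library left out, PMF1 ranged from -0.0778 to 0.0769, and among the partner genes CLASP1 from -0.0080 to 0.214 and RANBP2 from -0.0818 to 0.0063. RANBP2 changed to 0.0055 with library size only and 0.0142 without a filter. The number of partner genes called lower was 1 to 2 with a library left out. The cause of these changes was not tested. Depth limits SPC24 and NSL1 most.

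Same-numbered libraries, taken as differences from the mean of their cell line, correlated at -0.149, 0.207 and -0.133 across 8224 genes. Replicate 2 of 1CT correlated best with its own number, and replicates 1 and 3 did not. The largest correlation was 0.327, between 1CT replicate 3 and 1CT-A replicate 1. With 3 libraries per cell line the differences from the mean cancel out, so the correlations are tied to each other. They cannot decide whether the replicate numbers mark pairs. With the replicate number as a block, 35 of the 43 genes were called higher, CENPP being added, and the median log2 fold change was 0.69.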
